A study of Mus musculus with 13 samples.

Results

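mmu-miR-451a, mmu-miR-144-3p and mmu-miR-144-5p, the 3 mature miRNAs of the red blood cell cluster Mir144/Mir451a (MIMAT0001632, MIMAT0000156 and MIMAT0016988 in miRBase), were followed in mouse plasma by small RNA sequencing. They were taken by name from the 1907 mature miRNAs of the raw count table, and all 3 passed the filter on low counts, as did 368 miRNAs in all. The libraries came from 13 male mice, with 1 library per mouse. 3 mdx mice had received Givinostat, an inhibitor of histone deacetylases, by gavage at 37.5 mg/kg on 5 days a week for 15 weeks (mice 31, 34 and 35). 4 mdx mice had received the vehicle, 0.5% methylcellulose, on the same schedule (mice 40 to 43). 3 mdx mice (36, 37 and 39) and 3 C57BL/10J wild-type mice (86, 89 and 95) had received nothing and are called naive mdx and naive wt. mdx mice (C57BL10ScSn-Dmdmdx/J) carry a point mutation in the Dmd gene and lack dystrophin in all muscles, so Givinostat and vehicle mice share the mutation. Mice were young adults at the start, and all titles carry the time label T16. Blood was taken from the retro-orbital plexus into EDTA and spun once to give plasma.

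miR-451a and miR-144 are made from 1 primary transcript that the erythroid factor GATA1 switches on. Both arms of the Mir144 hairpin are released by Dicer, whereas the Mir451a hairpin is too short for Dicer and is sliced by Argonaute2, so that it gives a mature strand from 1 arm only. In red cell precursors miR-451a represses Ywhaz, which encodes 14-3-3 zeta, and miR-144 represses Nfe2l2, which encodes the antioxidant regulator NRF2. miR-451a stays abundant in mature red cells. For that reason its level in plasma, often set against miR-23a-3p, is widely used as a sign that red cells have broken during blood collection.

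The mature sequences are shown because the read counts below belong to them and because the seed sets which messenger RNAs a miRNA can bind. Capitals mark the seed, bases 2 to 8 from the 5′ end, and miR-101a-3p is the nearest relative of miR-144-3p by seed.
miR-144-5p: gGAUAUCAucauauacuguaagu
miR-144-3p: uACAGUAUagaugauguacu
miR-451a: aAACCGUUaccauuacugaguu
miR-101a-3p: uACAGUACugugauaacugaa
Among 1623 mature miRNAs of the count table with a RefSeq sequence (GRCm38.p6), 0 others shared bases 2 to 8 with any of the 3 miRNAs. 1, miR-101a-3p, shared bases 2 to 7 with miR-144-3p. The 3 miRNAs thus have 3 different seeds.

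The hairpins are shown because the cluster is read from 1 short stretch of the genome, with the mature strands in capitals.
Mir144 hairpin: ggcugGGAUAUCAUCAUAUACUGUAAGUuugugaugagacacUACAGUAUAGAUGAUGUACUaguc
Mir451a hairpin: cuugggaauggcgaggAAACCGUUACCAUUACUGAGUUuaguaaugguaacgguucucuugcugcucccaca
On GRCm38, Mir144 lies on the plus strand of chromosome 11 from 78073005 to 78073070 and Mir451a from 78073170 to 78073241, with 99 bases between them. In the GENCODE annotation no protein-coding gene covers them. The nearest neighbours are Eral1, a minus-strand gene 135 bases further on, and Flot2, a plus-strand gene that ends 12571 bases before. Folding with RNAfold placed the last 4 of the 22 bases of miR-451a in the terminal loop of its hairpin, and 0 bases of either arm of Mir144 in that of Mir144. Mir451b, annotated on the minus strand over all 72 bases of the Mir451a hairpin, had 0 counts of miR-451b in all 13 libraries. CPM scale counts to a common library total, and at these depths the limit that an empty count leaves is 1.03 to 2.57 CPM (3 counts per library, for counting error only).

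Libraries held 1167161 to 2899315 counts, and the 3 miRNAs together took 0.302% to 0.639% of them with Givinostat, 0.228% to 0.342% with vehicle, 0.213% to 0.352% in naive mdx mice and 0.372% to 0.776% in naive wt mice. miR-451a supplied 95.4% to 98.7% of these reads. It ranked 39 of 368 by mean CPM, miR-144-3p 163 and miR-144-5p 182. Counts were 3134 to 10704 per library for miR-451a, 33 to 293 for miR-144-3p and 14 to 226 for miR-144-5p, so the arms of miR-144 are measured less precisely. The standard deviation of log2 CPM within groups was 0.26 for miR-451a, 0.53 for miR-144-3p and 0.72 for miR-144-5p, against a median of 0.44 over all tested miRNAs. CPM below are scaled by TMM, which is meant to correct for a few abundant miRNAs that shift the library total. It takes most miRNAs to be unchanged, whereas in naive mdx against naive wt mice 16.6% of them were called lower and 26.9% higher. p-values come from 1 edgeR quasi-likelihood model over all 13 libraries and are adjusted over all 368 miRNAs by the method of Benjamini and Hochberg.

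miR-451a, the Argonaute2-sliced member, was lowest in mdx mice that had not received Givinostat. Its levels were 5326, 5552 and 3393 CPM with Givinostat, 3346, 2944, 2615 and 2365 CPM with vehicle, 2397, 2216 and 2875 CPM in naive mdx mice, and 5935, 6038 and 4857 CPM in naive wt mice. Every vehicle and naive mdx mouse lay below every naive wt mouse, as was so for 25.0% (vehicle) and 27.7% (naive mdx) of all tested miRNAs, while the Givinostat mice split, with mice 31 and 34 within the range of naive wt mice and mouse 35 next to the highest vehicle mouse. The means were 4757 ± 1186 CPM (SD, n = 3) with Givinostat, 2817 ± 424.7 (n = 4) with vehicle and 2496 ± 340.1 (n = 3) in naive mdx mice, against 5610 ± 654.3 (n = 3) in naive wt mice. In the order of the means, with naive mdx lowest, then vehicle, Givinostat and naive wt, no neighbouring pair passed edgeR's test (adjusted p = 0.823, 0.255 and 0.441). In plasma, causes such as fewer red cells, less miRNA per cell or less breaking of red cells cannot be told apart. Their part in these levels was not tested.

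miR-144-3p, which carries the seed of miR-144 that acts on Nfe2l2, was lower in all 10 mdx mice than in any naive wt mouse; for Givinostat against naive wt mice alone, 25.3% of all tested miRNAs were lower without overlap. Its levels were 83.5, 72.8 and 32.3 CPM with Givinostat, 39.1, 56.6, 32.3 and 21.1 CPM with vehicle, 42.0, 32.5 and 59.8 CPM in naive mdx mice, and 160.9, 165.3 and 117.1 CPM in naive wt mice. The 3 mdx groups overlap one another. Their means were 62.9 ± 27.0 CPM (SD, n = 3) with Givinostat, 37.3 ± 14.9 (n = 4) with vehicle and 44.8 ± 13.8 (n = 3) in naive mdx mice, against 147.8 ± 26.6 (n = 3) in naive wt mice. In the order of the means, with vehicle lowest, then naive mdx, Givinostat and naive wt, vehicle and naive mdx did not pass edgeR's test (adjusted p = 0.825), Givinostat was not tested against naive mdx, and Givinostat and naive wt passed.

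miR-144-5p, the strand of the opposite arm, followed the same pattern with a wider spread. Its levels were 71.6, 37.6 and 22.4 CPM with Givinostat, 27.9, 41.2, 24.6 and 8.97 CPM with vehicle, 15.03, 16.97 and 39.11 CPM in naive mdx mice, and 99.4, 123.5 and 106.3 CPM in naive wt mice. Again all mdx mice lay below all naive wt mice, mouse 31 of the Givinostat group being the closest; 25.3% of all tested miRNAs did so with Givinostat, 25.0% with vehicle and 27.7% in naive mdx mice. The means were 43.9 ± 25.2 CPM (SD, n = 3) with Givinostat, 25.7 ± 13.2 (n = 4) with vehicle, 23.7 ± 13.4 (n = 3) in naive mdx mice and 109.8 ± 12.4 (n = 3) in naive wt mice. Here naive mdx was lowest, then vehicle, Givinostat and naive wt, and of these neighbours only Givinostat and naive wt passed edgeR's test (adjusted p = 0.945, 0.710 and 0.0438).

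**Figure D1:**
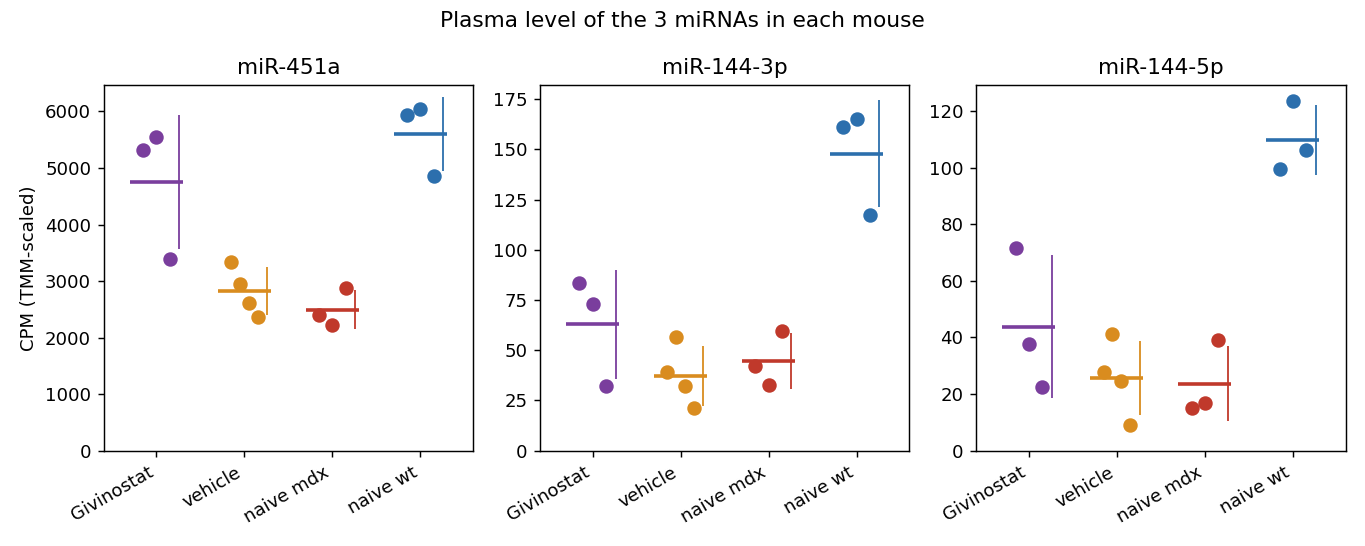
CPM scaled by TMM (y axis, linear, from 0) of miR-451a, miR-144-3p and miR-144-5p for the 4 groups (x axis); each point is 1 mouse, the horizontal bar marks the mean of a group and the vertical bar its SD. For both arms of miR-144 all 10 mdx mice lie below the lowest naive wt mouse, at 117.1 and 99.4 CPM, whereas for miR-451a 2 Givinostat mice, at 5326 and 5552 CPM, lie among the naive wt mice.

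The first comparison asks how plasma differs between untreated dystrophic and healthy mice. All 3 miRNAs fell in naive mdx mice relative to naive wt mice (n = 3 each), where 16.6% of all tested miRNAs were called lower. miR-451a changed by -1.17 on the log2 scale (SE 0.24, 95% confidence interval -1.68 to -0.66, adjusted p = 0.00107 from edgeR), that is, it stood 2.25-fold lower in naive mdx mice. miR-144-3p changed by -1.72 (SE 0.39, -2.54 to -0.89, adjusted p = 0.00209 from edgeR) and miR-144-5p by -2.20 (SE 0.50, -3.25 to -1.14, the same adjusted p). The median of the 3 was -1.72, and that of all tested miRNAs was 0.04. When libraries were scaled by their totals alone, the call of miR-451a was lost, at -0.82 (SE 0.36, adjusted p = 0.0758 from edgeR); the median of all miRNAs then moved by 0.37. It was also lost with limma on the deposited log2 values, at -0.78 (adjusted p = 0.0962 with a pseudocount of 1 and 0.0939 with 5). By library totals the levels of miR-451a were 3279, 2085 and 3401 CPM in naive mdx mice and 4477, 7401 and 3560 CPM in naive wt mice, which still do not overlap.

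Vehicle mice were set against the same naive wt mice, so this comparison is not independent of the first. All 3 miRNAs fell here too, where 23.1% of all tested miRNAs were called lower. miR-451a changed by -0.99 (SE 0.22, -1.46 to -0.53, adjusted p = 0.00163 from edgeR), miR-144-3p by -1.99 (SE 0.36, -2.75 to -1.23, adjusted p = 0.000313) and miR-144-5p by -2.10 (SE 0.45, -3.06 to -1.14, adjusted p = 0.00131). miR-144-5p held place 4, miR-144-3p place 7 and miR-451a place 67 among the 368 miRNAs when ordered from the lowest log2 fold change. In the same order, their places against naive wt mice were 6, 14 and 36 in naive mdx mice and 17, 23 and 164 with Givinostat. With limma on the deposited log2 values miR-451a did not pass, at -0.81 (adjusted p = 0.0661 with a pseudocount of 1 and 0.0660 with 5).

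Givinostat mice, set against the same naive wt mice, were lower in both arms of miR-144, where 11.7% of all tested miRNAs were called lower. miR-144-3p changed by -1.23 (SE 0.38, -2.04 to -0.41, adjusted p = 0.0212 from edgeR) and miR-144-5p by -1.31 (SE 0.48, -2.33 to -0.29, adjusted p = 0.0438). miR-451a did not pass, at -0.24 (SE 0.24, -0.74 to 0.27, adjusted p = 0.441 from edgeR). Both calls on miR-144 rest on few counts (27 to 140 per Givinostat library) and were lost with library totals, at -1.07 and -1.13 (adjusted p = 0.105 and 0.132). They were also lost without Givinostat mouse 35 (-0.95 and -1.04), without naive wt mouse 89 (-1.14 and -1.22) and with limma. The call of miR-144-5p alone was also lost without Givinostat mouse 34 (-1.22), naive wt mouse 86 (-1.42) or naive wt mouse 95 (-1.32), with upper-quartile factors (-1.37) and with a mean of at least 10 CPM (-1.21), so that it was lost in 10 of 17 alternatives.

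Vehicle with naive mdx mice asks what dosing itself changes. None of the 3 miRNAs passed, and edgeR called 0 of the 368 tested miRNAs (17 at an unadjusted p under 0.05, 0 with DESeq2), that is, 0%. miR-451a differed by 0.17 (95% confidence interval -0.30 to 0.65), miR-144-3p by -0.27 (-1.04 to 0.50) and miR-144-5p by 0.10 (-0.90 to 1.10) on the log2 scale. The intervals leave room for larger differences in all 3 miRNAs, down to -1.04 for miR-144-3p and up to 1.10 for miR-144-5p.

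Givinostat with vehicle is the study's test of the drug. None of the 3 passed edgeR's test over all miRNAs, where 0.272% were called. The differences were 0.76 for miR-451a (SE 0.22, 95% confidence interval 0.29 to 1.22, adjusted p = 0.255), 0.76 for miR-144-3p (SE 0.36, -0.01 to 1.53, adjusted p = 0.710) and 0.79 for miR-144-5p (SE 0.46, -0.18 to 1.76, adjusted p = 0.710). The median of all tested miRNAs was -0.02. miR-451a had an unadjusted p of 0.00347, rank 5 of 368, and its lowest Givinostat mouse, at 3393 CPM, lay just above the highest vehicle mouse, at 3346 CPM; 4.35% of all tested miRNAs were higher without overlap. By library totals the groups overlap, since mouse 35 was then at 2967 CPM and mouse 40 of the vehicle group at 3356 CPM. Over all alternatives, the difference in miR-451a was 0.62 to 0.89 and its adjusted p 0.0859 to 0.994. The arms of miR-144 were less steady: without Givinostat mouse 31 the differences were 0.47 for miR-144-3p and 0.21 for miR-144-5p, and over all left-out libraries 0.47 to 1.02 and 0.21 to 1.06.

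**Figure D2:**
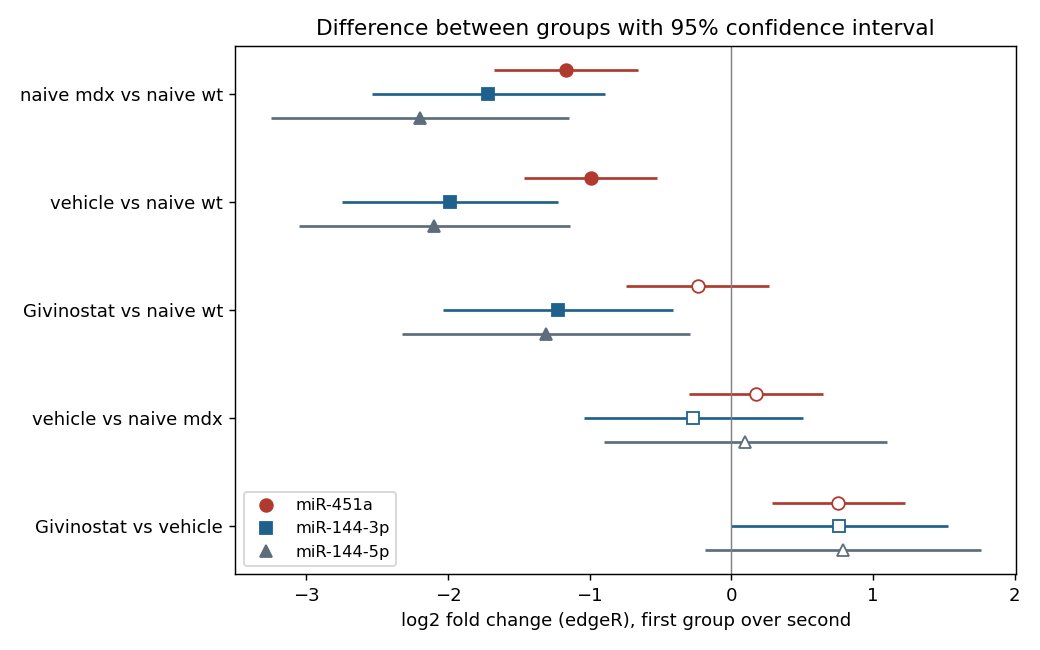
Log2 fold change from edgeR (x axis, first group over second) of the 3 miRNAs in 5 comparisons (y axis); lines are 95% confidence intervals, filled symbols have an adjusted p under 0.05 and open symbols do not. The 3 upper rows share the naive wt mice: the intervals of both arms of miR-144 stay below 0 in each, and that of miR-451a reaches 0.27 in the Givinostat row.

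Since both hairpins come from 1 transcript, the ratio of the miRNAs within a library shows whether they moved by the same amount, and it does not depend on scaling. Per read of miR-144-3p there were 63.8, 76.2 and 105.1 reads of miR-451a with Givinostat (mice 31, 34 and 35), 85.6, 52.0, 80.9 and 111.9 with vehicle, 57.1, 68.1 and 48.1 in naive mdx mice, and 36.9, 36.5 and 41.5 in naive wt mice. All mdx mice lay above all naive wt mice, so that each mdx plasma held fewer reads of miR-144-3p per read of miR-451a. Per read of miR-144-5p the reads of miR-451a were 74.4 to 151.8 with Givinostat, 71.5 to 263.7 with vehicle and 73.5 to 159.5 in naive mdx mice, against 45.7 to 59.7 in naive wt mice. Counts of different miRNAs also depend on how well each sequence is ligated to the adapters, so the ratio is not a ratio of molecules. The mean log2 ratio was 5.83 ± 0.25 (SD, n = 3) in naive mdx mice against 5.25 ± 0.10 (n = 3) in naive wt mice, a difference of 0.57 (two-sided exact permutation p = 0.1, adjusted over 10 ratio comparisons 0.333). The difference from naive wt mice was 1.05 with vehicle (exact permutation p = 0.0571, adjusted 0.333) and 1.06 with Givinostat (exact permutation p = 0.1, adjusted 0.333). Each of these p-values is the smallest that the number of mice allows, and none of the 10 comparisons could have reached 0.05. Vehicle differed from naive mdx by 0.47 (exact permutation p = 0.171, adjusted 0.4) and Givinostat from vehicle by 0.010 (exact permutation p = 1.0), both with overlap.

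The balance of the arms of Mir144 overlapped between all groups. miR-144-3p took 53.8%, 66.0% and 59.1% of the reads of both arms with Givinostat, 58.3%, 57.9%, 56.8% and 70.2% with vehicle, 73.6%, 65.7% and 60.4% in naive mdx mice, and 61.8%, 57.2% and 52.4% in naive wt mice. The 3p strand was the more abundant in all 13 libraries. With 47 to 512 reads of both arms per library, the 95% Wilson intervals are wide, and they cover counting error only. They run from 56.0% to 81.3% at the lowest count (vehicle mouse 43) and from 52.9% to 61.4% at the highest (naive wt mouse 89). In several libraries, such as that of vehicle mouse 42 (45.4% to 67.4%), the interval includes an even share of both arms. Naive mdx mice had a log2 ratio of 3p to 5p of 0.998 ± 0.432 (SD, n = 3) and naive wt mice of 0.417 ± 0.276 (n = 3), with an exact permutation p of 0.2 (adjusted 0.4). The other 4 comparisons gave differences of -0.37 to 0.22 with exact permutation p from 0.343 to 0.8. Single libraries set much of these values. Without naive mdx mouse 36 the difference was 0.35 between naive mdx and naive wt mice and -0.13 between vehicle and naive mdx mice. Without vehicle mouse 43 it was 0.024 between vehicle and naive wt mice and, between Givinostat and vehicle, turned to 0.12; without Givinostat mouse 34 it turned to -0.045 between Givinostat and naive wt mice.

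**Figure D3:**
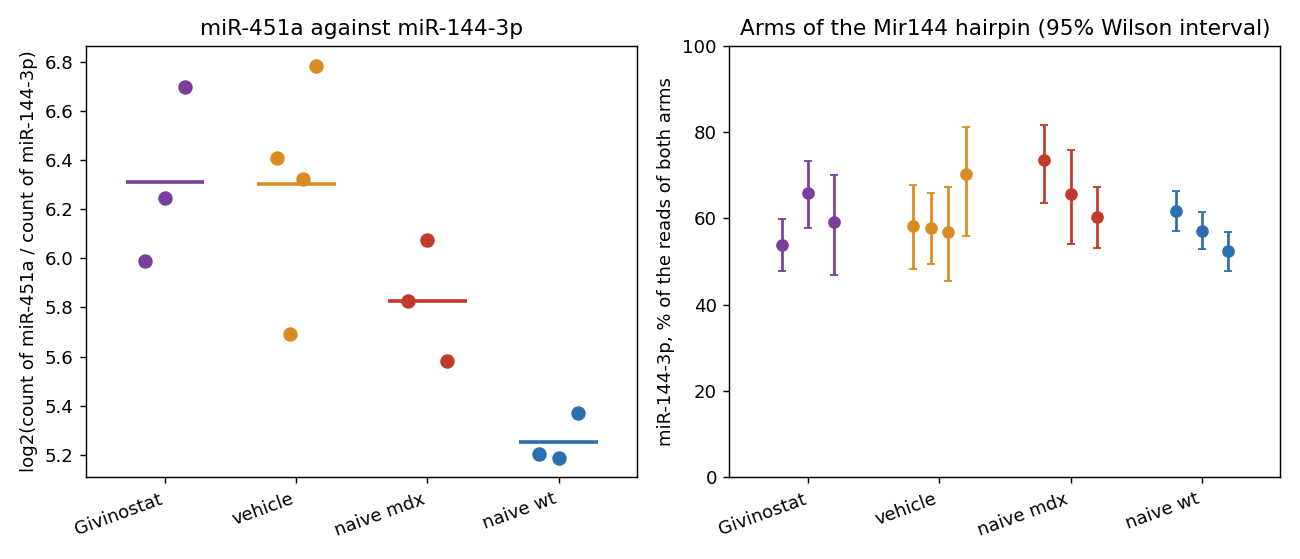
Left, log2 of the count of miR-451a over that of miR-144-3p (y axis) of each mouse, with a bar at each group's mean; right, the share of miR-144-3p in the reads of both arms of Mir144 (y axis, percent) with 95% Wilson intervals. On the left the naive wt mice, at 36.5 to 41.5 reads of miR-451a per read of miR-144-3p, lie below all mdx mice; on the right the groups overlap.

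miR-451a is commonly read against miR-23a-3p, which red cells hold little of, as a sign of haemolysis. This ratio of counts was 0.620, 0.546 and 0.345 with Givinostat, 0.293, 0.314, 0.243 and 0.228 with vehicle, 0.228, 0.156 and 0.287 in naive mdx mice, and 1.02, 0.928 and 1.08 in naive wt mice. The naive wt mice lie above all mdx mice, and the Givinostat mice above the vehicle mice. Both parts of the ratio differed between genotypes: miR-23a-3p rose in naive mdx mice, with a log2 difference to naive wt mice of 1.04 (SE 0.23) and an adjusted p of 0.00160 from edgeR, while miR-451a fell. Between Givinostat and vehicle miR-23a-3p differed by -0.14 (SE 0.21, adjusted p = 0.891 from edgeR). The part that haemolysis has in these values was not tested.

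miR-16-5p is itself abundant in red cells, and against it naive mdx and naive wt mice overlapped for miR-451a but not for miR-144-3p. There were 5.12, 5.54 and 4.14 reads of miR-451a per read of miR-16-5p with Givinostat, 4.04, 3.27, 3.28 and 4.13 with vehicle, 3.39, 3.36 and 3.82 in naive mdx mice, and 5.11, 4.38 and 3.73 in naive wt mice. The highest naive mdx mouse thus lay above the lowest naive wt mouse. For miR-144-3p naive mdx mice had a log2 ratio to miR-16-5p of -4.02 ± 0.34 (SD, n = 3) and naive wt mice of -3.13 ± 0.32 (n = 3), with no overlap (highest -3.65, lowest -3.47). With Givinostat it was -4.02 ± 0.55 (n = 3) and with vehicle -4.43 ± 0.33 (n = 4). These ratios to miR-23a-3p and miR-16-5p are given as descriptions, without a test.

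**Figure D4:**
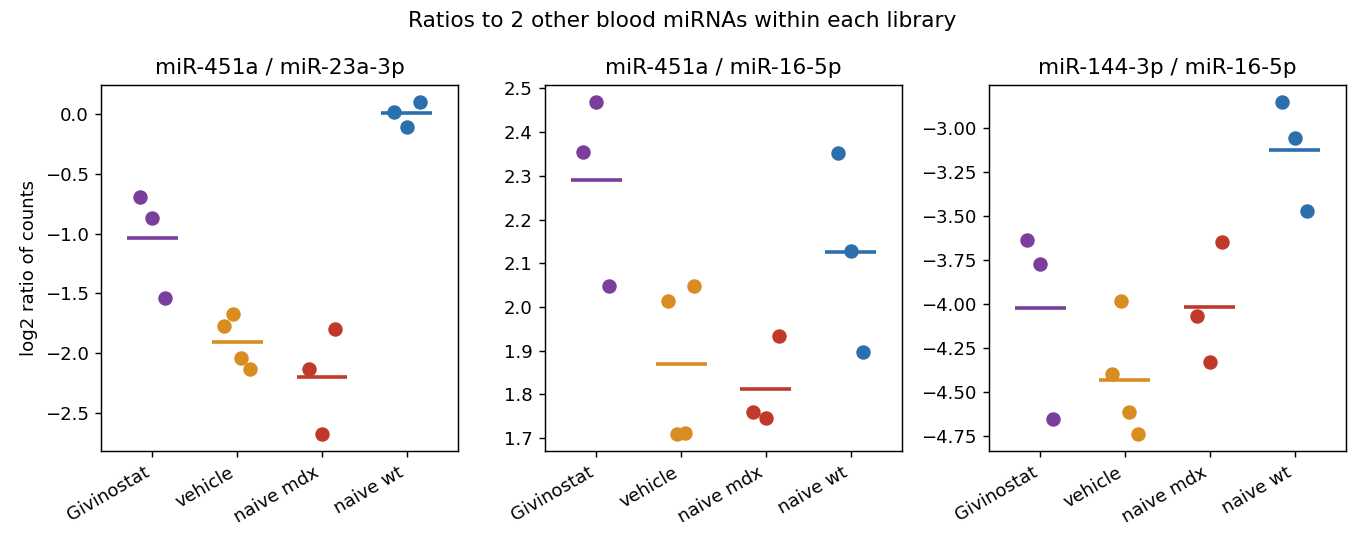
Log2 ratio of counts within each library (y axis) of miR-451a to miR-23a-3p, of miR-451a to miR-16-5p and of miR-144-3p to miR-16-5p, for the 4 groups (x axis); each point is 1 mouse and each bar a group mean. The naive wt mice stand above all mdx mice in the left and right plots and overlap them in the plot of miR-451a to miR-16-5p.

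Other miRNAs of red blood cells moved in both directions in naive mdx mice, with most of the rises in miR-486a and miR-486b. Of 15 on a list, 14 were tested; 2 fell, 4 rose and 8 did not pass (of all tested miRNAs 16.6% were called lower and 26.9% higher), with a median log2 fold change of 0.04 against 0.04 over all tested miRNAs. miR-16-5p changed by -0.86 (SE 0.22) with an adjusted p of 0.00566 from edgeR, and miR-183-5p fell as well, by 1.09 (SE 0.34). Those that rose were miR-486a-5p, by 2.21 (SE 0.48) with an adjusted p of 0.00163, and miR-486b-5p, miR-486b-3p and miR-185-5p, by 1.46, 1.83 and 0.81. Red cell precursors make miR-486, and so does muscle. miR-92a-3p differed by 0.01 (SE 0.33), miR-25-3p by -0.47 (SE 0.21) and miR-363-3p by 0.08 (SE 0.49), none of which passed. Nor did miR-15b-5p (-0.89), miR-182-5p (-0.73), miR-106b-3p (-0.50), miR-486a-3p (0.70) or miR-15a-5p (0.54). Relative to naive wt mice 5 of the 14 rose and 5 fell with vehicle, where 24.2% of all tested miRNAs were called higher and 23.1% lower, and 3 rose and 2 fell with Givinostat, where 22.6% were called higher and 11.7% lower. The rises were again in miR-486a and miR-486b, with miR-185-5p added in vehicle mice. Between Givinostat and vehicle, and between vehicle and naive mdx mice, 0 of the 14 passed. Of all tested miRNAs 0.272% and 0% were called there, so this count says nothing particular to the list. The summed level of the list was 19590 to 22760 CPM with Givinostat, 18900 to 25590 CPM with vehicle, 18070 to 30620 CPM in naive mdx mice and 18440 to 25500 CPM in naive wt mice, and none of its miRNAs was at 0 in any group.

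miRNAs of muscle and liver moved with the same comparison. All 5 muscle miRNAs tested rose in naive mdx mice and all 4 liver miRNAs fell, against 26.9% of all tested miRNAs called higher and 16.6% called lower, and none was at 0 in any group. miR-206-3p, made in skeletal muscle, changed by 4.26 (SE 0.36) and miR-122-5p, the main miRNA of liver, by -3.91 (SE 0.82) on the log2 scale. The summed level was 207100 to 422000 CPM of muscle and 13950 to 95980 CPM of liver in naive mdx mice, against 9589 to 17490 CPM and 316700 to 893100 CPM in naive wt mice. Of 5 leukocyte miRNAs 1 fell (miR-142a-3p, -0.93, SE 0.35), with summed levels of 4114 to 7727 CPM in naive mdx mice and 6588 to 8720 CPM in naive wt mice. Of 5 platelet miRNAs tested 1 fell (miR-126a-3p, -1.07) and 1 rose (miR-24-3p, 1.30), with summed levels of 46450 to 63610 CPM in naive mdx mice and 50240 to 50970 CPM in naive wt mice. A share of 1 in 5 is near that of all tested miRNAs. Their part in the levels of the cluster was not tested. Without miR-122-5p and 4 muscle miRNAs in the table, miR-451a changed by -1.17, miR-144-3p by -1.73 and miR-144-5p by -2.20 between naive mdx and naive wt mice, and all 3 passed.

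The seed relative of miR-144-3p was not called where miR-144-3p fell. miR-101a-3p, of many tissues, was at 497 ± 123 CPM in naive mdx mice and 404 ± 61.4 CPM in naive wt mice (SD, n = 3 each). On the log2 scale that is 0.30 (SE 0.29), with an adjusted p of 0.397 from edgeR, and it passed in none of the 5 comparisons. miR-101b-3p starts 1 base earlier, so that its bases 2 to 8 differ. It fell with vehicle relative to naive wt mice, by 0.97 (SE 0.33) with an adjusted p of 0.0244 from edgeR, and passed in no other comparison.

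Across the 13 libraries the 3 miRNAs varied together. Pearson's r of log2 CPM was 0.96 between the arms of miR-144, 0.87 between miR-451a and miR-144-3p and 0.86 between miR-451a and miR-144-5p (Spearman's rho 0.90, 0.79 and 0.81). Libraries of naive wt mice stand apart and all values share the scaling factors, so r was also computed on deviations from the group means, where it was 0.89, 0.89 and 0.72. These are descriptions over 13 libraries, without a test. Among the 308 other miRNAs whose mean reached 10 CPM, those most like miR-451a by Spearman's rho were miR-16-5p (0.93), miR-455-5p (0.90) and miR-214-5p (0.85). For miR-144-3p they were miR-103-3p (0.91), miR-144-5p (0.90) and miR-106b-5p (0.88), and for miR-144-5p let-7f-5p (0.93), let-7i-5p (0.92) and miR-16-5p (0.92). miR-23a-3p ran the other way, with a rho of -0.74 to miR-451a, and so did miR-486a-5p, at -0.59. Both values include the difference between groups. On deviations from the group means, Pearson's r with miR-451a was 0.003 for miR-23a-3p and -0.24 for miR-486a-5p. On deviations from the group means the miRNA most like miR-451a was miR-144-3p, and that most like miR-144-3p was miR-451a. For miR-144-5p, by contrast, miR-144-3p stood at rank 3 and miR-451a at rank 20. Between naive mdx and naive wt mice miR-455-5p changed by -1.92 (SE 0.35), miR-214-5p by -1.78 (SE 0.39), miR-103-3p by -1.12 (SE 0.33), let-7f-5p by -1.66 (SE 0.37) and let-7i-5p by -0.85 (SE 0.29), all called, and miR-106b-5p by -0.66 (SE 0.32), which did not pass. They were chosen for their likeness over the same libraries, so these changes are a description. Members of the let-7 family differ by few bases, and how reads were divided among them is uncertain.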

How the data were processed

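RNA from the plasma of 13 mice was sequenced after size selection for mature miRNAs. The authors trimmed adapters (Trimmomatic in the study's methods, cutadapt 1.4.2 in the submitters' processing notes), mapped reads with Bowtie 1.0.0 to GRCm38 and annotated them with miRBase release 21. They deposited raw counts of 1907 mature miRNAs, summed over isomiRs, and a table of log2 values; each deposited log2 value is the log2 raw count shifted by a constant per library, with none for counts of 3 or fewer. The methods name DESeq2 normalisation. Groups follow the sample titles; the strain label reads C57BL/10J for every sample. Each column was assigned to its mouse through the name. No 2 libraries of a group were copies (chi-square per degree of freedom at least 104.5).

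Raw counts were filtered with filterByExpr (minimum count of 10), which kept 368 of 1203 miRNAs with a count and 99.90% to 99.96% of the counts, scaled by TMM and fitted in edgeR 4.0.16 (R 4.3.3, glmQLFit with legacy = FALSE, 1 mean per group, all libraries). miRNAs were called at an adjusted p under 0.05. log2 CPM for correlations used a prior count of 2. Ratios per mouse, with 0.5 added to each count, were tested with the two-sided exact permutation test of scipy 1.17.1. The edgeR fit was tested on simulated counts. Hairpins were folded with RNAfold 2.7.2; sequences are RefSeq's (GRCm38.p6), found for all 3 miRNAs, and neighbouring genes are from GENCODE M21. Alternatives were RLE, upper-quartile and total scaling, other filters, a table without 5 abundant miRNAs, legacy = TRUE, DESeq2 1.42.0, fits of 2 groups, limma 3.58.1 on the deposited log2 values (pseudocount 1 or 5) and leaving out each library. Other miRNAs named are the 3 most like each member, the first 5 of the red blood cell list, miR-23a-3p, miR-101a-3p, miR-101b-3p, miR-451b, miR-122-5p and miR-206-3p; those named beside the other counts of a list were chosen after their values were seen. The 3 miRNAs and all lists were chosen with earlier results of these data known. The ratios to miR-23a-3p and miR-16-5p were added after the data were seen.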

Additional observations from a re-analysis of the deposited data

Results flagged for a closer look

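In vehicle mice, the log2 ratio of miR-144-3p to miR-144-5p had 1 mouse far from the others: mouse 43 was at 1.21 and the other 3 at 0.39 to 0.48, a gap of 0.886 of the whole range, above the critical value of 0.829 for 4 mice. Its ratio rests on 33 and 14 counts, the fewest of any library, and its 95% Wilson interval of the 3p share (56.0% to 81.3%) overlaps those of the other vehicle mice. Of the 5 measures examined in this way it was the only one beyond the critical value, and chance alone puts about 1 group in 20 there.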

How the results depend on the processing

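Between naive mdx and naive wt mice, and between vehicle and naive wt mice, both arms of miR-144 stayed called under every alternative run. With library totals alone miR-451a was -0.82 (naive mdx against naive wt) and both arms of miR-144 were -1.07 and -1.13 (Givinostat against naive wt), none called; vehicle against naive mdx turned to -0.045 for miR-451a and -0.12 for miR-144-5p. With limma on the deposited log2 values (pseudocount 1, then 5) miR-451a was -0.78 and -0.78 in naive mdx and -0.81 and -0.81 in vehicle mice against naive wt mice, miR-144-3p -1.15 and -1.11 and miR-144-5p -1.30 and -1.23 with Givinostat against naive wt, none called; vehicle against naive mdx turned to -0.028 and -0.028 for miR-451a and to -0.13 and -0.11 for miR-144-5p. For Givinostat against naive wt, miR-144-5p was not called with upper-quartile factors (-1.37) or a mean of at least 10 CPM (-1.21). The cause was not tested. Between Givinostat and vehicle, 1 miRNA was called in the edgeR fit, 3 with upper-quartile factors, 2 with library totals or DESeq2, 6 without a filter and 0 with a mean of at least 10 CPM or with limma. With single libraries left out that count was 0 to 6, Givinostat against naive wt ran from -1.49 to -0.95 for miR-144-3p and from -1.87 to -1.04 for miR-144-5p, and vehicle against naive mdx from -0.48 to 0.045 and from -0.17 to 0.72. The ratio of miR-451a to miR-144-3p then differed between Givinostat and vehicle by -0.19 to 0.17, and that of miR-144-3p to miR-144-5p by -0.26 to 0.12, and by -0.045 to 0.32 between Givinostat and naive wt. Of the 3 miRNAs most like each member, ranking by Pearson's r kept 2 for miR-451a, 1 for miR-144-3p and 2 for miR-144-5p, and ranking by deviations from the group means kept 0, 1 and 1.

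Total scaling moved the median log2 fold change of all miRNAs by 0.37 in naive mdx against naive wt mice, and upper-quartile scaling by -0.22. The arms of miR-144 had as few as 33 and 14 counts per library, which limits their ratios. No paired analysis was possible because the groups share no mouse numbers.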
